A study of Mus musculus with 8 samples.

Results

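Gabra2, Nnt, Wdfy1, Ide and Entpd4 are genes for which differences between the C57BL/6J and C57BL/6N substrains of the laboratory mouse have been reported. They were taken by symbol from the gene rows of the count matrices, 5 of 32285 rows, and described in all 18 annotated clusters of nuclei and in 8 inbred strains. Nuclear RNA was counted in single nuclei of the striatum from 32 mice, all 12 weeks old, with the 10x Genomics Multiome assay, which also reads open chromatin in the same nucleus. The strains were C57BL/6, 129S1/SvImJ, A/J, NOD/ShiLtJ, NZO/HlLtJ, CAST/EiJ, PWK/PhJ and WSB/EiJ, with 4 mice per strain and both sexes in each batch. The sex of each mouse was not used here. A batch, 4 in all, mixed nuclei from 8 mice, 1 per strain, and the authors assigned nuclei to strains by genotype. The labels name no treatment, transgene or engineered deletion for any strain. The deposited table calls the C57BL/6 nuclei C57BL_6NJ, whereas the design text names C57BL/6J, and the strain is written C57BL/6 here. No second C57BL/6 substrain was among the 8 strains, so the 2 substrains could not be set side by side.

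C57BL/6J and C57BL/6N come from the same founder line and have been bred apart for many generations. C57BL/6J is known to carry a deletion inside Nnt that removes several exons, and the mouse reference genome, made from C57BL/6J, lacks the deleted stretch. C57BL/6J also carries a 1-base deletion in an intron of Gabra2, next to a splice site, that is known to lower Gabra2 RNA and protein in the brain below the levels of other strains, while C57BL/6N keeps the intact intron. Gabra2 encodes the alpha-2 subunit of the GABA-A receptor, a chloride channel opened by the transmitter GABA that is rich on projection neurons of the striatum. Nnt encodes the transhydrogenase of the inner mitochondrial membrane, which makes NADPH from NADH. Ide encodes insulin-degrading enzyme, a metalloprotease that also cleaves amyloid beta, and its locus has been reported as duplicated in part of the C57BL/6J stock. Wdfy1 encodes an endosomal protein with WD40 repeats and a FYVE domain, and Entpd4 encodes a nucleotidase of the Golgi and lysosome membranes.

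Gabra2 lies at chr5:70958392-71095849, Nnt at chr13:119335527-119409257, Wdfy1 at chr1:79702262-79776143, Ide at chr19:37268743-37334544 and Entpd4 at chr14:69337151-69366742 of GRCm38.p6, the assembly of the RefSeq table, and all are protein-coding. The deposited index of accessible regions held 26 peaks over the body of Gabra2, 6 over Nnt, 22 over Wdfy1, 17 over Ide and 0 over Entpd4. RefSeq promoter sequence was at hand for 2 of the 5 genes, Gabra2 and Ide, and these are also the genes called higher in C57BL/6 neurons. The 250 bases before each start are printed in the direction of the gene, both from the minus strand, chr5:71095850-71096099 for Gabra2 and chr19:37334545-37334794 for Ide. Capitals mark the GC box, GGGCGG on either strand.
Gabra2: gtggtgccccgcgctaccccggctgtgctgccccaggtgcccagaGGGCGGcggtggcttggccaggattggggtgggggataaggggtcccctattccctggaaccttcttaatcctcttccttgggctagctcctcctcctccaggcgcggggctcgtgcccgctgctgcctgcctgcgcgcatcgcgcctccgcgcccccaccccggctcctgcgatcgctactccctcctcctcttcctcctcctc
Ide: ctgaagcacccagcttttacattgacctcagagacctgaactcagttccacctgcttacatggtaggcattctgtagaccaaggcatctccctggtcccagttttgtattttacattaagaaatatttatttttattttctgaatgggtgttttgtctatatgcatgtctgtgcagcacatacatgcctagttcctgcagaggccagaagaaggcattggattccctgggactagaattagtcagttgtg
The Gabra2 stretch held 1 GC box, 18 CpG dinucleotides and 70.0% G and C. The Ide stretch held no GC box, no CpG and 42.8% G and C. Of 32851 promoter windows of the same length, 32.7% held a GC box, and the median window held 6 CpG. A peak covered the whole Ide stretch, from 37334290 to 37335288, whereas no peak overlapped the Gabra2 stretch. Among all windows, 51.7% overlapped a peak.

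Across all annotated nuclei, Gabra2 drew 83059 counts, Wdfy1 11907, Ide 8662, Nnt 1113 and Entpd4 none, out of 258962399 counts in 55672 nuclei. The 6557 C57BL/6 nuclei were among these. Batch totals ranged from 43538698 to 77698312 counts, and batch 3 was the shallowest, with a median of 3232 counts (unique molecular identifiers) per nucleus against 4593 to 4931 in the other batches. Between 188 and 328 barcodes were shared by pairs of batches. For Drd1+ neurons, Drd2+ neurons, oligodendrocytes, astrocytes and macrophages, 4 of 4 marker genes were each highest in the cluster of that name among these 5. Levels are given per mouse and cluster as counts per 1e+06 counts (CPM) after trimmed-mean scaling. Only genes that passed the filter on low counts in the cluster entered these totals. Pooled levels use the counts of all genes, so pooled and per-mouse levels are not on the same scale. C57BL/6 was compared with the mean of the other 7 strains by edgeR's quasi-likelihood test, with Benjamini-Hochberg adjusted p-values over all genes of a cluster. A gene counted as called below an adjusted p of 0.05, and 9 clusters held enough mice for the test. Mice, not nuclei, are the replicates throughout.

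Gabra2, the receptor subunit, was highest in C57BL/6 in Drd1+ neurons, the projection neurons with the dopamine D1 receptor. Its levels in the 4 C57BL/6 mice were 526, 474, 480 and 465 CPM in batches 1 to 4, and in the other 28 mice they ran from 319 to 423 CPM with a median of 374. The groups did not overlap, the lowest C57BL/6 mouse being above the highest mouse of any other strain. Such a separation was seen for 0.261% of the 13431 genes tested there. The difference was a log2 fold change of 0.39 ± 0.05 (SE), with an adjusted p of 6.39e-09 by edgeR. Of the 5 genes, Gabra2 and Ide were called in this comparison, both higher in C57BL/6, beside 13.9% of all genes called and 8.01% called higher.

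The order of the other strains in Drd1+ neurons was NZO/HlLtJ at 408 ± 15.9 CPM (SD, n = 4), then NOD/ShiLtJ at 380 ± 24.5, PWK/PhJ at 376 ± 10.1, A/J at 363 ± 25.3, WSB/EiJ at 361 ± 32.2, CAST/EiJ at 356 ± 25.8 and 129S1/SvImJ at 351 ± 24.7. In this order 2 of the 7 steps between neighbours were wider than the larger SD of the pair, those from C57BL/6 at 486 ± 27.3 to NZO/HlLtJ and from NZO/HlLtJ to NOD/ShiLtJ. Contrasted with each strain in turn, 7 pairs in all, C57BL/6 was called higher in Gabra2 in all 7. The share of all genes called in these contrasts was 8.37% for 129S1/SvImJ, 9.6% for A/J, 27.9% for CAST/EiJ, 11.1% for NOD/ShiLtJ, 13.8% for NZO/HlLtJ, 29.2% for PWK/PhJ and 13.8% for WSB/EiJ. The widest contrast was with 129S1/SvImJ (log2 0.47 ± 0.06, SE, edgeR adjusted p = 1.90e-07). The narrowest was with NZO/HlLtJ (log2 0.25 ± 0.06, edgeR adjusted p = 0.0031). Without batch 1 the NZO/HlLtJ contrast was 0.23, with an edgeR adjusted p of 0.0548.

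Drd2+ neurons, the projection neurons with the dopamine D2 receptor, gave Gabra2 levels of 559, 503, 457 and 487 CPM in the 4 C57BL/6 mice and 311 to 493 CPM in the other 28, with a median of 375. Here 1 mouse of another strain, NZO/HlLtJ of batch 1 at 493 CPM, lay inside the C57BL/6 range. C57BL/6 was higher by 0.41 ± 0.05 (SE) on the log2 scale, with an edgeR adjusted p of 9.30e-08. Gabra2 and Ide were again the 2 of 5 genes called in C57BL/6, beside 11.1% of 12799 genes. By strain, C57BL/6 stood at 501 ± 43.0 CPM (SD, n = 4) and NZO/HlLtJ at 435 ± 42.3, and the log2 difference between these 2 strains, 0.20 with a 95% interval of 0.06 to 0.35, missed the threshold (edgeR adjusted p = 0.0549), in a contrast where 11.7% of genes were called. The Drd2+ difference of C57BL/6 from the other strains exceeded the Drd1+ difference by 0.02 on the log2 scale, with a 95% interval from -0.07 to 0.11. That interaction, fitted with the mouse as a block, had an edgeR adjusted p of 0.977. The same mice gave both clusters.

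**Figure D1:**
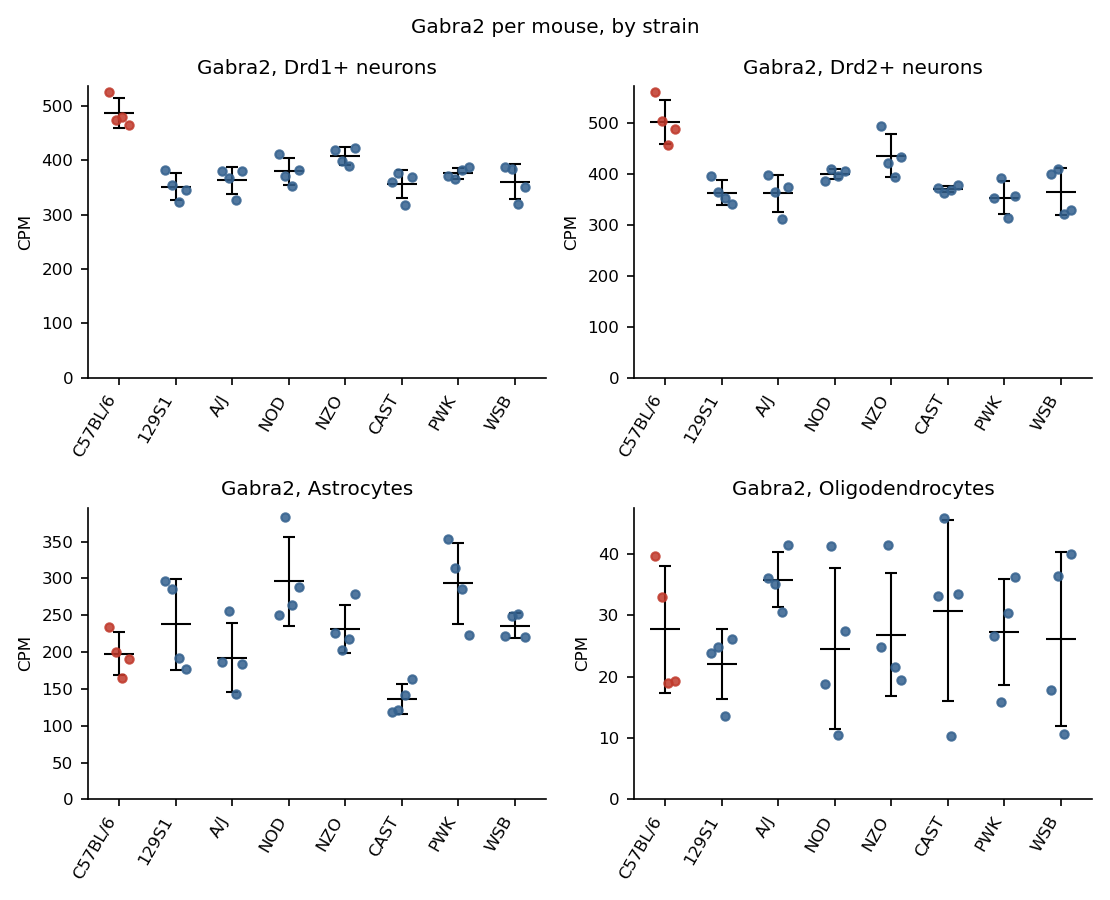
Gabra2 per mouse in CPM (vertical axes, from 0), by strain, in Drd1+ neurons, Drd2+ neurons, astrocytes and oligodendrocytes. Points are mice in the order of batches 1 to 4, horizontal bars are strain means, whiskers are SD, and axis labels give the first part of each strain name. C57BL/6 (red) stands above every other mouse in Drd1+ neurons, from 465 to 526 CPM, and inside the range of the others in astrocytes and oligodendrocytes.

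In the second Drd1+ cluster, labelled Drd1+ neuron_2 by the authors, the C57BL/6 mice had 563, 637, 510 and 656 CPM of Gabra2. The other 28 mice had 236 to 614 CPM with a median of 412, and 4 of them were above the lowest C57BL/6 mouse. The log2 fold change was 0.56 ± 0.11 (SE, edgeR adjusted p = 0.000382), and Gabra2 was the only member called there, beside 3.1% of 5544 genes. In Nxph1+ interneurons the C57BL/6 mice had 440, 529, 541 and 354 CPM against a median of 273 in the others, whose highest mouse had 633 CPM. The log2 fold change of 0.58, with a 95% interval of -0.01 to 1.16, was not called (edgeR adjusted p = 0.838), in a cluster where 0.0752% of genes were.

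Astrocytes gave another order of strains. The C57BL/6 mice had 235, 200, 164 and 191 CPM of Gabra2, and the other 28 had 118 to 383 CPM with a median of 224. The C57BL/6 mice lay within that range, 3 of the 4 below its median. This was a log2 fold change of -0.17, with a 95% interval of -0.43 to 0.09 (edgeR adjusted p = 0.686). With 1 batch left out at a time it ran from -0.26 to -0.12. Of the 7 paired contrasts in astrocytes, 3 were called for Gabra2, in both directions. C57BL/6 was lower than NOD/ShiLtJ (log2 -0.57, edgeR adjusted p = 0.0333) and PWK/PhJ (log2 -0.55, edgeR adjusted p = 0.0301) and higher than CAST/EiJ (log2 0.62, edgeR adjusted p = 0.0231), in contrasts where 2.56%, 6.96% and 7.48% of genes were called. The strain term, which asks whether any of the 8 strains differ, was called for Gabra2 in astrocytes (edgeR adjusted p = 9.77e-07), where 21.5% of genes were called by it. CAST/EiJ was lowest at 118, 122, 142 and 163 CPM, and NOD/ShiLtJ was highest at 250, 383, 263 and 288 CPM, with PWK/PhJ next at 353, 314, 285 and 223 CPM. The CAST/EiJ mice overlapped the rest through 1 A/J mouse at 143 CPM. The C57BL/6 difference in astrocytes minus that in Drd1+ neurons was -0.56 on the log2 scale, with a 95% interval of -0.87 to -0.24. With the mouse as a block its edgeR adjusted p was 0.0507, beside 1.1% of genes called, and with the batch in place of the mouse it was 0.0188.

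Gabra2 in oligodendrocytes was low, at 39.7, 33.0, 18.9 and 19.2 CPM in the C57BL/6 mice, against a median of 27.0 and a range of 10.4 to 45.8 CPM in the others. C57BL/6 and the other strains differed by 0.06 on the log2 scale, with a 95% interval of -0.35 to 0.47 (edgeR adjusted p = 0.931), where 8.24% of genes were called and no member was. The pooled level there, 27.7 CPM, was 7.23% of that in Drd1+ neurons. The D1 neuron markers Drd1, Tac1, Pdyn and Isl1 had between 7.17% and 33.8% of their Drd1+ level in oligodendrocyte nuclei, and the Gabra2 share was within that range. In astrocytes the same 4 markers had between 9.81% and 29.8% of their Drd1+ level, and Gabra2 had 57.2%. In macrophages, where the markers had between 4.24% and 34.7%, Gabra2 had 10.2%, and it did not pass the filter on low counts. Endothelium (log2 -0.28, 95% interval -1.05 to 0.49) and the cluster Polydendrocyte/Oligodendrocyte (log2 0.26, 95% interval -0.56 to 1.08) gave no call for Gabra2, in clusters where 0.321% and 0.143% of genes were called. Leaving out 1 batch at a time, the endothelium value ran from -0.71 without batch 3 to 0.04 without batch 2, so its direction turned.

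Gabra2 sits in a row of GABA-A receptor genes on the same chromosome, with Gabrg1, Gabra4 and Gabrb1. None of these 3 was called in C57BL/6 in Drd1+ or Drd2+ neurons, where 13.9% and 11.1% of all genes were. Gabra4, the alpha-4 subunit, stood at 419 CPM in C57BL/6 and 378 in the others in Drd1+ neurons (log2 0.15, edgeR adjusted p = 0.186), and Gabrb1, the beta-1 subunit, at 602 and 583 (log2 0.05, edgeR adjusted p = 0.604). The median log2 fold change of the 3 was 0.05, and over all genes tested it was -0.003. In astrocytes Gabra4 was called higher in C57BL/6, at 112 ± 35.2 CPM (SD, n = 4) against 83.8 ± 34.9 (n = 28), a log2 fold change of 0.59 (edgeR adjusted p = 0.030). It was the only 1 of the 3 called there, beside 3.36% of all genes.

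Ide, the insulin-degrading enzyme, was the other member whose mean in Drd1+ and Drd2+ neurons was highest in C57BL/6. In Drd1+ neurons the C57BL/6 mice had 44.8, 34.3, 27.5 and 53.6 CPM of Ide, against 18.5 to 43.6 CPM and a median of 26.2 in the others. The groups overlapped, and 11 of the 28 other mice were above the lowest C57BL/6 mouse, that of batch 3. Across strains this gave a log2 fold change of 0.52 ± 0.11 (SE), with an edgeR adjusted p of 0.0011. WSB/EiJ followed at 34.6 ± 7.11 CPM (SD, n = 4), after C57BL/6 at 40.0 ± 11.5, and PWK/PhJ was lowest at 22.0 ± 3.06.

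Of the 7 paired contrasts of Ide in Drd1+ neurons, 5 were called, and C57BL/6 was higher in each. The widest was with PWK/PhJ (log2 0.86 ± 0.16, SE, edgeR adjusted p = 0.0001), where 29.2% of genes were called. With WSB/EiJ the log2 difference was 0.20, with a 95% interval from -0.11 to 0.51 (edgeR adjusted p = 0.453), and with NOD/ShiLtJ it was 0.39, with a 95% interval from 0.07 to 0.72 (edgeR adjusted p = 0.111). In these 2 contrasts 13.8% and 11.1% of genes were called. The contrasts with 129S1/SvImJ (log2 0.50, edgeR adjusted p = 0.0310) and NZO/HlLtJ (log2 0.44, edgeR adjusted p = 0.0490) were less stable. The former was not called without batch 2, 3 or 4, at edgeR adjusted p-values of 0.0614, 0.0798 and 0.411, and the latter without any 1 of the 4 batches, at edgeR adjusted p-values from 0.0546 to 0.266. Both fell to 0.27 without batch 4, which held the C57BL/6 mouse with 53.6 CPM.

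Drd2+ neurons gave Ide levels of 44.2, 42.3, 29.8 and 47.7 CPM in C57BL/6 and 17.3 to 40.8 CPM, with a median of 28.1, in the others. As in the Drd1+ neurons, the mouse of batch 3 was the lowest of the 4 and that of batch 4 the highest, and only the batch 3 mouse lay within the range of the other strains. The log2 fold change was 0.55 ± 0.12 (SE, edgeR adjusted p = 0.000611). The difference between the 2 clusters' contrasts was 0.04, with a 95% interval of -0.20 to 0.27 (edgeR adjusted p = 0.987).

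Astrocytes had more Ide, at 82.4, 80.1, 61.6 and 111 CPM in the C57BL/6 mice and 26.7 to 81.3 CPM in the others, whose median was 51.7. Again the batch 4 mouse was the highest and the batch 3 mouse the lowest, and 8 other mice were above the latter. The log2 fold change of 0.66 ± 0.19 (SE) was called (edgeR adjusted p = 0.0297), beside 3.36% of 8207 genes, and Ide was the only member called. It was not called without batch 2 (0.64, edgeR adjusted p = 0.137) or without batch 4 (0.42, edgeR adjusted p = 0.556). In oligodendrocytes the C57BL/6 mice had 39.7, 34.6, 44.9 and 31.6 CPM against a median of 32.5 in the others, with a log2 fold change of 0.23 and a 95% interval of -0.14 to 0.59 (edgeR adjusted p = 0.611). In the second Drd1+ cluster (log2 0.34, 95% interval -0.23 to 0.90) and in Nxph1+ interneurons (log2 0.14, 95% interval -0.58 to 0.86) Ide was not called.

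Among other peptidases that break down insulin or amyloid beta, 6 of 7 listed symbols were in the matrix and all 6 were tested in Drd1+ neurons, where 1 was called higher and none lower, beside 8.01% and 5.93% of all genes. That was Ece1, endothelin-converting enzyme, at 51.9 ± 4.15 CPM in C57BL/6 (SD, n = 4) and 40.9 ± 10.3 in the others (n = 28), a log2 fold change of 0.36 (edgeR adjusted p = 0.029). Mme, which encodes neprilysin, stood at 89.9 and 115 CPM (log2 -0.34, edgeR adjusted p = 0.189). The median of the 6 was -0.01. None of the 6 was called in Drd2+ neurons, where 11.1% of all genes were.

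**Figure D2:**
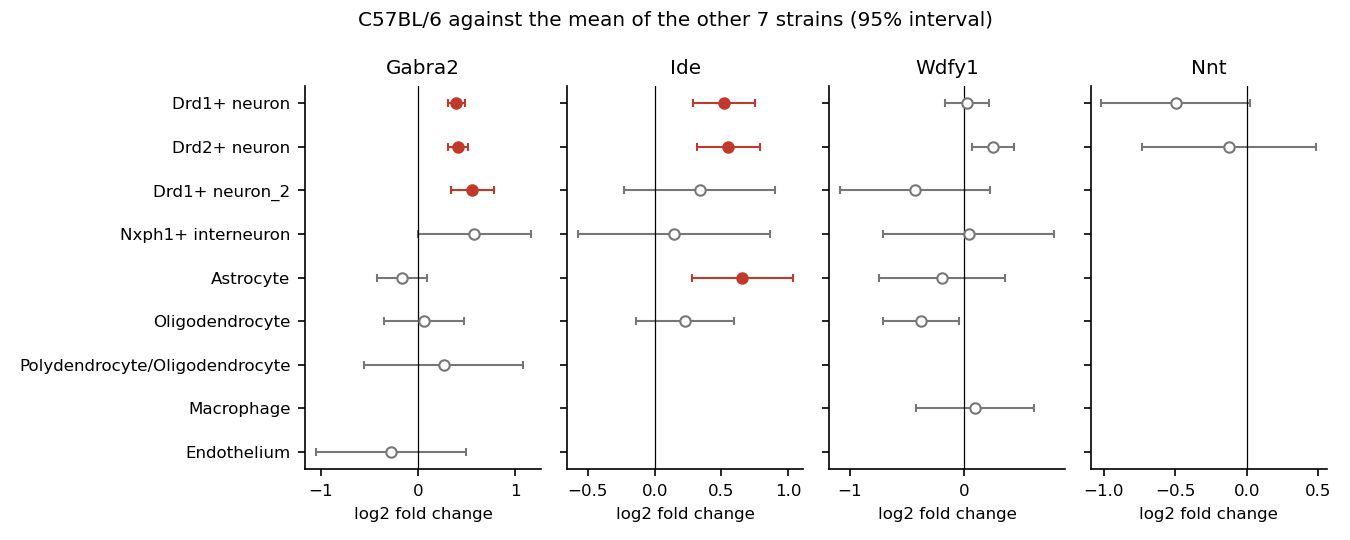
Log2 fold change of C57BL/6 against the mean of the other 7 strains (horizontal axes), for Gabra2, Ide, Wdfy1 and Nnt in each cluster where the gene passed the filter on low counts. Points are edgeR estimates with 95% intervals, filled red where the adjusted p was under 0.05. Gabra2 is filled in the 3 projection neuron clusters, between 0.39 and 0.56, Ide in Drd1+ neurons, Drd2+ neurons and astrocytes, between 0.52 and 0.66, and Wdfy1 and Nnt in none.

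Nnt, the mitochondrial transhydrogenase, was counted little in every strain. In Drd1+ neurons the C57BL/6 mice had 3.76, 1.96, 2.46 and 2.59 CPM, from 35 counts in all, and the other 28 mice had 1.68 to 7.99 CPM with a median of 3.70. The C57BL/6 mice were in the lower part of that range, though the mouse of batch 1, at 3.76 CPM, was above its median. They overlapped the other mice, since PWK/PhJ mice had 3.35, 3.12, 1.68 and 2.77 CPM. C57BL/6 had the lowest mean of the 8 strains, 2.69 ± 0.76 CPM (SD, n = 4). PWK/PhJ was next at 2.73 ± 0.74, a step smaller than either SD. Against the other 7 strains C57BL/6 differed by -0.50 on the log2 scale, with a 95% interval of -1.02 to 0.02 (edgeR adjusted p = 0.213). The strain term was called for Nnt (edgeR adjusted p = 0.0105), beside 61.7% of genes, and was lost on leaving out batch 1, 2 or 4, with edgeR adjusted p-values of 0.0583, 0.0878 and 0.0535. The highest strain was WSB/EiJ, at 6.56, 5.34, 3.35 and 7.99 CPM, and C57BL/6 was 1.09 lower than it on the log2 scale (edgeR adjusted p = 0.0108), the only paired contrast of 7 that was called for Nnt. Without batch 2 or without batch 4 that contrast fell short, at edgeR adjusted p-values of 0.0875 and 0.0971.

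Drd2+ neurons had 4.42, 1.39, 4.50 and 2.27 CPM of Nnt in C57BL/6, from 28 counts. The others ran from 1.12 to 9.50 CPM with a median of 3.37, so the C57BL/6 mice lay within that range, 2 above the median and 2 below it. Their log2 difference from the other strains was -0.12, with a 95% interval of -0.73 to 0.49 (edgeR adjusted p = 0.866). CAST/EiJ had the lowest mean, 2.28 ± 0.89 CPM (SD, n = 4), and those of PWK/PhJ and NZO/HlLtJ were also below the 3.14 ± 1.56 of C57BL/6. The strain term was called (edgeR adjusted p = 0.0120), beside 55.9% of genes, and it was lost without batch 2, 3 or 4 (edgeR adjusted p-values of 0.0513, 0.0502 and 0.0842).

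Outside these 2 clusters Nnt did not pass the filter on low counts in any tested cluster, the second Drd1+ cluster included, so its levels there are a description. In astrocytes C57BL/6 had the highest mean, with 12.5, 20.02, 27.4 and 19.97 CPM from 22 counts, and the other 28 mice had 0 to 30.9 CPM with a median of 9.50. In the second Drd1+ cluster the C57BL/6 mice had 27.2, 6.50, 14.3 and 6.91 CPM from 12 counts, and the others 0 to 18.2 CPM with a median of 4.13. Elsewhere C57BL/6 was also found below the others: its macrophages had 0, 0, 0 and 20.3 CPM from 2 counts, a pooled level of 4.05 CPM against 12.6 in the other strains. In Nxph1+ interneurons and in the Polydendrocyte/Oligodendrocyte cluster all 4 C57BL/6 mice were at 0, with exact 95% Poisson intervals that reached 8.34 and 13.8 CPM, and the other strains had pooled levels of 4.82 and 7.72 CPM. This was not particular to C57BL/6. All 4 PWK/PhJ mice were at 0 in Nxph1+ interneurons, and all 4 NOD/ShiLtJ mice in the Polydendrocyte/Oligodendrocyte cluster. In macrophages all 4 CAST/EiJ mice were at 0. The C57BL/6 difference in astrocytes minus that in Drd1+ neurons was 1.41 on the log2 scale, with a 95% interval of 0.40 to 2.41, and was not called (edgeR adjusted p = 0.226). That fit filtered genes over the libraries of both clusters together, so Nnt entered it although it did not pass in astrocytes alone. The astrocyte side rests on the same 22 counts in C57BL/6. Over all annotated nuclei, C57BL/6 had 4.03 CPM of Nnt, with an exact 95% Poisson interval of 3.34 to 4.81. The other strains ran from 2.97 in CAST/EiJ to 6.21 in WSB/EiJ, so C57BL/6 lay within their range. Such intervals cover counting error only.

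Of 13 genes of mitochondrial NADPH supply and of the redox and peroxide-removing enzymes it serves, all were tested in Drd1+ and Drd2+ neurons. In Drd1+ neurons 2 were called higher and none lower in C57BL/6, and in Drd2+ neurons 1 was called higher and none lower. Of all genes, 13.9% were called in Drd1+ neurons, 8.01% of all being higher, and 11.1% in Drd2+ neurons. Me3, the mitochondrial NADP-dependent malic enzyme, stood at 478 ± 24.4 CPM in C57BL/6 (SD, n = 4) and 332 ± 51.9 in the others (n = 28) in Drd1+ neurons, a log2 fold change of 0.54 (edgeR adjusted p = 1.37e-10). In Drd2+ neurons Me3 was higher by 0.35 and in the second Drd1+ cluster by 0.71. In astrocytes it stood at 75.8 ± 21.5 CPM against 23.6 ± 10.6, a log2 fold change of 1.80 (edgeR adjusted p = 2.49e-09). Glrx2, a mitochondrial glutaredoxin, was the other gene called in Drd1+ neurons (log2 0.30, edgeR adjusted p = 0.021). Gsr, glutathione reductase, stood at 36.9 CPM in both groups, and the median log2 fold change of the 13 was 0.03.

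**Figure D3:**
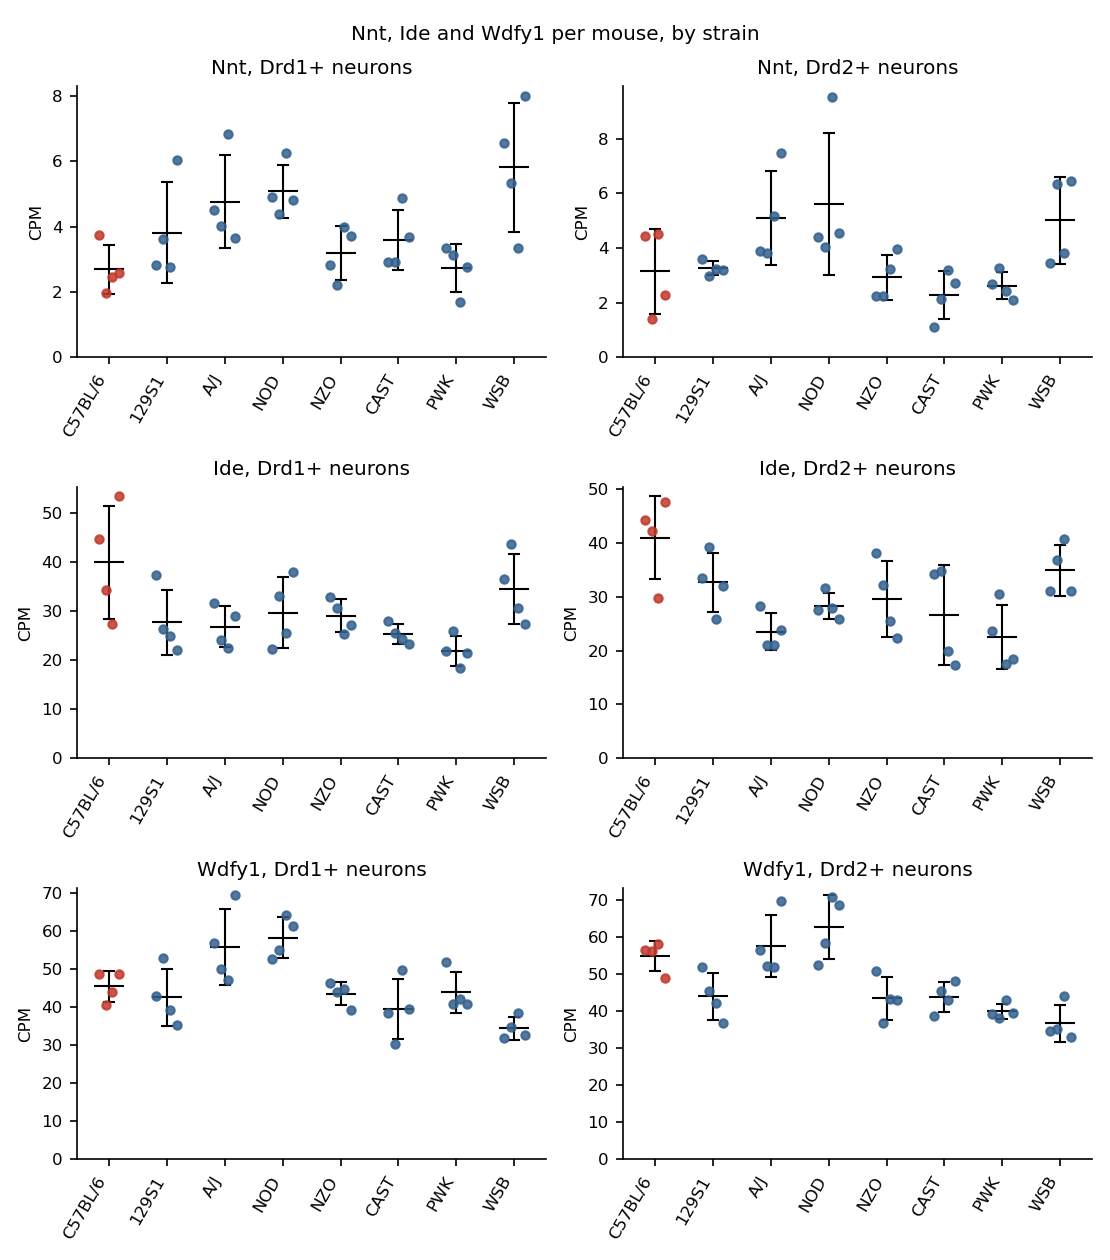
Nnt, Ide and Wdfy1 per mouse in CPM (vertical axes, from 0), by strain, in Drd1+ neurons (left) and Drd2+ neurons (right). Points are mice in the order of batches 1 to 4, horizontal bars are strain means and whiskers are SD. C57BL/6 (red) overlaps other strains for all 3 genes, with the highest mean for Ide, 40.0 and 41.0 CPM, and a mean of 2.69 and 3.14 CPM for Nnt.

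Wdfy1, the endosomal protein gene, varied between strains, with C57BL/6 inside the range of the other mice in Drd1+ and Drd2+ neurons. Of the 7 steps between neighbouring strains, only 1 was wider than the larger SD of the pair in each of these neuron clusters, against 2 in oligodendrocytes and 0 in astrocytes, so most ranks were not set apart by their spread. In Drd1+ neurons the C57BL/6 mice had 48.8, 40.5, 43.9 and 48.8 CPM, and the other 28 had 30.4 to 69.4 CPM with a median of 43.4. C57BL/6 differed from the other 7 strains by 0.03 on the log2 scale, with a 95% interval of -0.17 to 0.22 (edgeR adjusted p = 0.904). That difference ran from -0.005 to 0.07 with 1 batch left out at a time, so its direction turned. NOD/ShiLtJ was highest at 52.6, 55.0, 64.2 and 61.4 CPM, A/J had 56.9, 50.1, 47.1 and 69.4 CPM, and WSB/EiJ was lowest at 31.9, 34.8, 38.6 and 32.6 CPM. Each NOD/ShiLtJ mouse was above each WSB/EiJ mouse, a pair picked because its means were the highest and lowest. The share of all genes whose highest and lowest strains were so separated was not computed. The strain term was called (edgeR adjusted p = 1.75e-05), beside 61.7% of genes. C57BL/6 was called higher than WSB/EiJ (log2 0.42, edgeR adjusted p = 0.0268), beside 13.8% of genes. That call was lost without batch 1 (0.33) or batch 4 (0.37), and C57BL/6 was called against none of the other 6 strains.

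In Drd2+ neurons Wdfy1 stood at 56.4, 56.2, 57.9 and 48.8 CPM in C57BL/6, against 32.9 to 70.7 CPM with a median of 43.5 in the others. C57BL/6 stood at 54.8 ± 4.10 CPM (SD, n = 4), below NOD/ShiLtJ at 62.5 ± 8.62 and A/J at 57.5 ± 8.37 and above the other 5 strains. The log2 fold change of 0.26, with a 95% interval of 0.07 to 0.44, missed the threshold (edgeR adjusted p = 0.0627), and it passed without batch 4 (0.31, edgeR adjusted p = 0.0389). Against the 4 other classical strains alone it was 0.10 (edgeR adjusted p = 0.657). Of the paired contrasts, those with PWK/PhJ (log2 0.47, edgeR adjusted p = 0.0042) and WSB/EiJ (log2 0.61, edgeR adjusted p = 0.0004) were called, beside 25% and 12% of all genes. The strain term was called too (edgeR adjusted p = 5.82e-07), beside 55.9% of genes. The Drd2+ contrast was larger than the Drd1+ contrast by 0.23, with a 95% interval of 0.02 to 0.43, and this interaction was not called (edgeR adjusted p = 0.614, beside 0.428% of genes called). The same test was run on simulated counts of 11937 genes in these 2 clusters. It recovered 39% of the genes given an interaction of 1 on the log2 scale and 3% of those given 0.6. Every simulated gene had the same dispersion (spread beyond counting error), and no effect was shared by the 2 clusters of a mouse. The SE of the Wdfy1 interaction was 0.10, and recovery at that spread was not simulated.

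Oligodendrocytes had a different strain at the top of the order for Wdfy1. The CAST/EiJ mice had 110, 91.6, 83.2 and 120 CPM, and the other 28 mice had 24.9 to 72.9 CPM with a median of 44.5. All 4 CAST/EiJ mice were above every other mouse, as they were for 1.37% of the 9082 genes tested there. The strain term had an edgeR adjusted p of 8.41e-09, beside 34.8% of genes called. C57BL/6 had the lowest mean there, 53.3, 28.0, 49.6 and 28.8 CPM, but its contrast with the other 7 strains, -0.38 with a 95% interval of -0.71 to -0.04, was not called (edgeR adjusted p = 0.194) and ran from -0.58 without batch 1 to -0.17 without batch 4. In Drd1+ neurons the same CAST/EiJ mice had 38.5, 30.4, 49.7 and 39.6 CPM, second from the lowest. The oligodendrocyte contrast of C57BL/6 minus the Drd1+ one was -0.41, with a 95% interval of -0.81 to -0.0014 (edgeR adjusted p = 0.436, beside 2.38% of genes called). The CAST/EiJ difference itself was seen in the values and was not tested as an interaction.

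Macrophages had the highest pooled level of Wdfy1 of all 18 clusters, 86.0 CPM, with an exact 95% Poisson interval of 77.1 to 95.6. Per-mouse values leave out the counts of genes below the filter and are not on that scale. Per mouse, C57BL/6 macrophages had 97.3, 94.9, 127 and 122 CPM, and those of the other mice 43.0 to 171 CPM with a median of 101 (log2 0.10, 95% interval -0.42 to 0.61, edgeR adjusted p = 0.940, beside 4.9% of genes called). Astrocytes, the second Drd1+ cluster and Nxph1+ interneurons also gave no call for Wdfy1. Of its relatives, 2 were tested in Drd1+ neurons, where 8.01% of all genes were called higher. Wdfy2 was called higher in C57BL/6 there, at 20.1 ± 3.00 CPM (SD, n = 4) against 15.7 ± 4.31 (n = 28), a log2 fold change of 0.35 (edgeR adjusted p = 0.040). In oligodendrocytes Wdfy2 was called as well, at 165 ± 20.4 against 131 ± 21.9 CPM (log2 0.35, edgeR adjusted p = 0.012), beside 8.24% of all genes. Neither of the 2 relatives tested in Drd2+ neurons was called, beside 11.1% of all genes, and their median log2 fold change was -0.02. Wdfy3 was tested and not called in Drd1+ neurons, and Wdfy4 did not pass the filter.

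**Figure D4:**
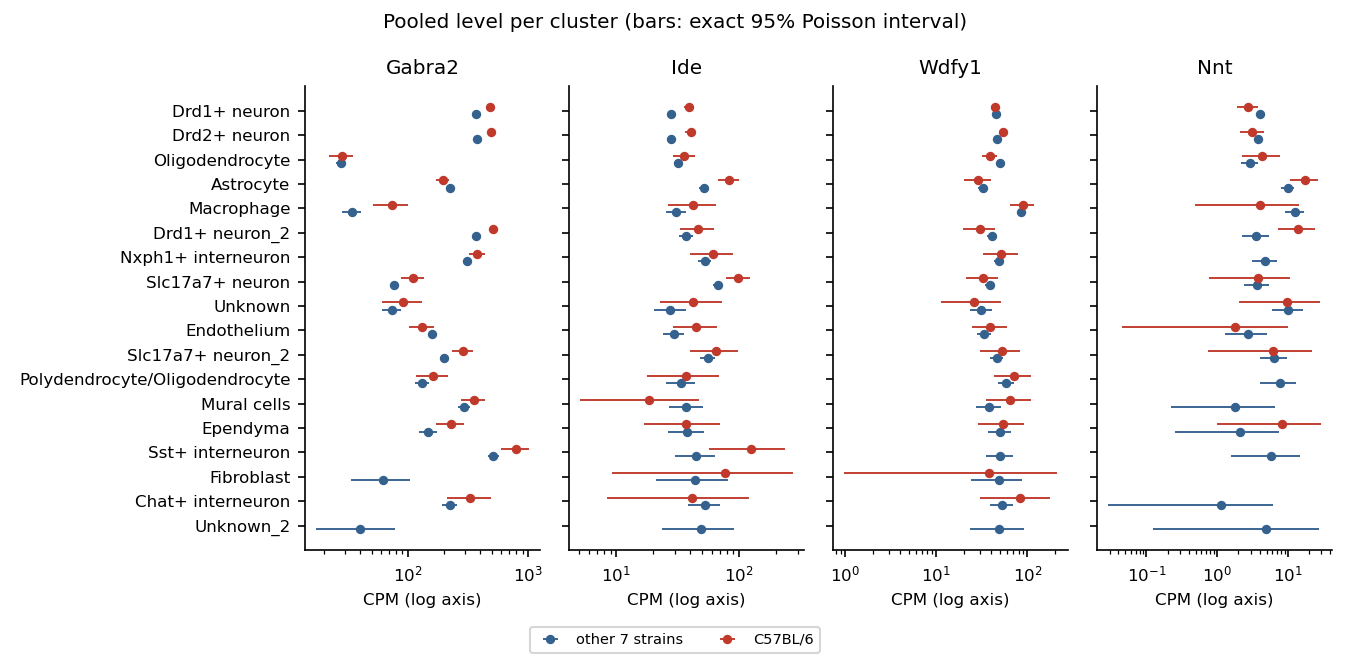
Pooled level of Gabra2, Ide, Wdfy1 and Nnt per cluster in CPM (horizontal log axes) in C57BL/6 (red) and in the other 7 strains together (blue), clusters ordered by number of nuclei. Bars are exact 95% Poisson intervals, which cover counting error only, and clusters with 0 counts in a group have no point. For Gabra2, C57BL/6 stands above the others in 14 of 17 clusters and the intervals are apart, with C57BL/6 higher, in 7. For Nnt it stands above in 5 of 17. The shares of all genes that do so were not computed.

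Over the 17 clusters that held C57BL/6 nuclei, the pooled C57BL/6 level was above that of the other strains in 14 for Gabra2, 14 for Ide, 9 for Wdfy1 and 5 for Nnt. These pooled levels have no replicate error, and small clusters share the same 4 C57BL/6 mice. For Gabra2 the 2 counting intervals were apart, with C57BL/6 higher, in 7 clusters. The shares of all genes that stood above in as many clusters, or whose intervals were apart, were not computed, here or for the other members. Among the 7 clusters, Sst+ interneurons had the highest Gabra2 level of all, 789 CPM in C57BL/6 (exact 95% Poisson interval 597 to 1022). That level came from 57 counts in 16 nuclei, and the other strains had 514 CPM (462 to 570). The 2 clusters of Slc17a7+ neurons, which express a glutamate transporter of excitatory neurons, had 110 against 77.1 CPM and 286 against 198 CPM. They held 99 and 41 C57BL/6 nuclei. For Ide the intervals were apart in 4 clusters, and for Wdfy1 in 1 cluster in each direction. For Nnt they were apart in 1 cluster, the second Drd1+ cluster, at 13.9 CPM in C57BL/6 (7.18 to 24.3) and 3.604 CPM in the others (2.28 to 5.41). Of the 12 C57BL/6 counts there, 7 came from the mouse of batch 1. Without the filter on low counts, the fit over mice gave a log2 fold change of 1.84, which was not called (edgeR adjusted p = 0.197).

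Entpd4 had 0 counts in all 18 clusters and all 8 strains. For the C57BL/6 nuclei together, 0 of 30290968 counts allows up to 0.0990 CPM, and for all strains together up to 0.0116 CPM, taking 3 counts as the limit. Its paralog Entpd4b, whose gene starts 218250 bases further along chromosome 14 at 69555401 and ends at 69584940, also had 0 counts. Of 20655 protein-coding genes in both the RefSeq table and the matrix, 7.49% had 0 counts. Of the 7405 of these at least as long as Entpd4, 13 genes, 0.176%, had 0 counts, 2.59% had no peak over them, and 10 had neither a count nor a peak. How reads that match 2 near-identical genes were counted is not given in the sources used here, so the 0 counts do not show that these genes were silent, and no level of Entpd4 could be set between strains.

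The peak index was also empty around both genes. After the counts had been seen, the distance between the peaks on either side was measured. No peak lay between 69254175 and 69692102 on chromosome 14, a stretch of 438 kb, whereas the median gap between neighbouring peaks on the autosomes was 3480 bases. Gaps at least this long made up 0.0249% of 285538 gaps, 71 in all. Within it the RefSeq table lists 13 genes, 6 of them protein-coding, and 7 are in the matrix. Besides Entpd4 and Entpd4b at 0, the other 5 had between 5 and 80 counts over all nuclei: Synb, which encodes a syncytin, had 15, Gm27222 had 15, Gm16677 had 78, Gm16867 had 80 and Gm27177 had 5. Gm16867 overlaps the end of Entpd4, and Gm27177 that of Entpd4b.

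**Figure D5:**
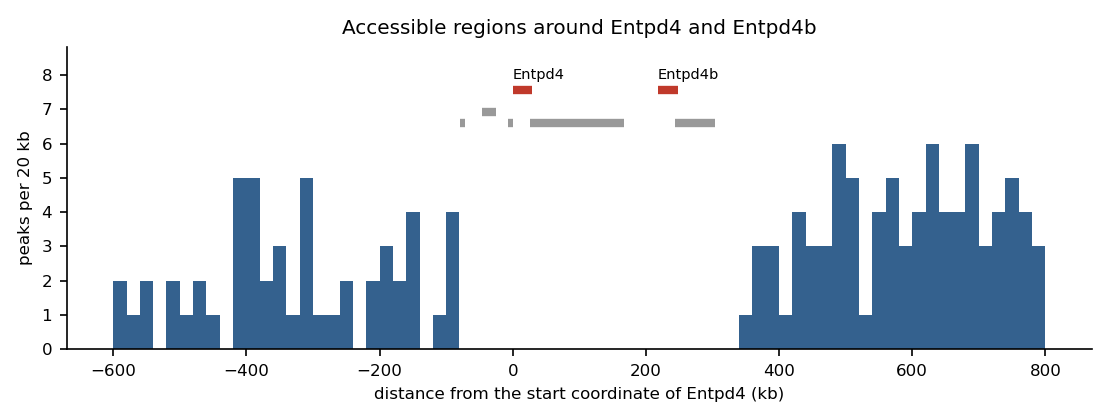
Peaks per 20 kb (vertical axis) by distance from the start coordinate of Entpd4 (horizontal axis, kb). Bars above the histogram mark the genes of the matrix inside the stretch without peaks, red for Entpd4 and Entpd4b at 0 counts and grey for the others. The 438 kb without a peak hold both red genes.

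Of the 7 other Entpd genes, which encode nucleotidases that split extracellular or luminal nucleotides, 5 were tested in Drd1+ neurons, where none was called higher and 1 lower in C57BL/6, beside 8.01% and 5.93% of all genes. Entpd3 stood at 25.7 ± 6.38 CPM in C57BL/6 (SD, n = 4) and 44.6 ± 17.6 in the others (n = 28), and fell by 0.73 on the log2 scale (edgeR adjusted p = 2.43e-05). In Drd2+ neurons, where 11.1% of all genes were called in either direction, 4 were tested and 2 called lower, Entpd3 by 0.66 and Entpd1, the ectonucleotidase CD39, by 0.81, at 10.3 ± 3.96 against 20.7 ± 9.94 CPM (edgeR adjusted p = 0.047). In Drd1+ neurons Entpd1 stood at 25.9 and 34.7 CPM (edgeR adjusted p = 0.630).

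Other genes with reported differences among C57BL/6 substrains were read in the same fits. Of 9 listed symbols, 8 were in the matrix and 5 were tested in Drd1+ neurons, where 1 was called higher and 1 lower in C57BL/6, beside 8.01% and 5.93% of all genes. The median log2 fold change of the 5 was 0.19. None of the 5 tested in Drd2+ neurons was called, beside 11.1% of all genes. Dock2, an exchange factor of immune cells that is partly duplicated in some C57BL/6N stocks, stood at 0.587 ± 0.186 CPM against 3.79 ± 4.11 in Drd1+ neurons. It fell by 2.24 on the log2 scale (edgeR adjusted p = 0.004). Both levels were low, and the SD of the other mice was larger than their mean. Cyfip2, an actin regulator with a C57BL/6N variant in its coding sequence, stood at 209 and 194 CPM (log2 0.11, edgeR adjusted p = 0.288).

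By Pearson's r of batch-adjusted log2 CPM over the 32 mice in Drd1+ neurons, the genes most like Gabra2 among 9049 were Trub1 (0.77), Aim2 (0.77) and Stn1 (0.76). Trub1 stood at 27.3 CPM in C57BL/6 and 16.5 in the others. For Ide they were St8sia2 (0.71), Gng12 (0.69) and C2cd2l (0.68). For Nnt they were Orc6 (0.75), Ccdc34 (0.72) and Bicc1 (0.67), and for Wdfy1 they were Nol4 (0.77), Cap2 (0.77) and Frmd6 (0.75). The 32 points share strains in fours, and each library gives both genes of a pair, so these values describe likeness only.

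Set beside the label of the strain, the 4 measurable genes gave these readings. Gabra2, lowered in C57BL/6J by the known variant, was higher in C57BL/6 than in each of the other 7 strains in Drd1+ neurons, and in astrocytes it was called lower than in NOD/ShiLtJ and PWK/PhJ and higher than in CAST/EiJ. Nnt, deleted in part in C57BL/6J, was counted in C57BL/6 at a level that did not differ from the mean of the other strains beyond the spread between mice: the 95% interval in Drd1+ neurons ran from -1.02 to 0.02 on the log2 scale. The mean of Nnt was lowest in C57BL/6 among the 8 strains in Drd1+ neurons, and in CAST/EiJ in Drd2+ neurons. Leaving out 1 batch at a time, the estimate in Drd1+ neurons lay between -0.79 and -0.41. It reached -0.07 over 11 alternative settings, of which 1 summed all nuclei of a mouse and was not limited to these neurons. In Drd2+ neurons the estimate lay between -0.52 and 0.11 over 10 settings, so its direction turned. Reads from the deleted part of Nnt have no place in the reference in any strain, so these values come from the rest of the gene, and whether its introns were counted is not given in the sources used here. Ide, whose locus has been reported as duplicated in part of the C57BL/6J stock, was called higher in C57BL/6 in 3 of 6 clusters tested. The call in astrocytes was lost in 4 of 10 alternative settings. Whether these mice carry the Ide duplication was not tested. Wdfy1 was called in 0 of 7 clusters. Reads of all strains were aligned to mm10, a C57BL/6J sequence. In Drd1+ neurons 8.01% of genes were called higher and 5.93% lower in C57BL/6, and the part of the alignment in the Gabra2 and Ide differences was not tested. What the Gabra2 splice variant does to counts of nuclear RNA, which is largely unspliced, was not tested either.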

How the data were processed

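The 4 RNA samples, 1 per batch, were deposited by the authors as raw count matrices, with no normalization, of genes by barcodes. Per the submitters' processing notes, bcl2fastq 2.20.0.422 and Cell Ranger ARC 2.0.0 were used with mm10; whether introns and reads matching several genes were counted is not given in the sources used here. Strain, doublet status and cluster of each nucleus came from the authors' deposited table, made per its description with Demuxlet and DoubletFinder, and peak positions from their index over all batches. Nuclei with a cluster name were kept.

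Counts were summed per mouse and cluster, libraries of at least 10 nuclei were kept, and a cluster was tested where at least 3 mice of every strain remained. Genes were filtered with filterByExpr and fitted on TMM-scaled counts by edgeR 4.0.16 (R 4.3.3; robust quasi-likelihood, strain plus batch), with Benjamini-Hochberg adjustment over all genes of a cluster. Per-mouse CPM used TMM-scaled totals of the genes that passed the filter, and pooled cluster and strain levels unscaled totals of all genes. Strains share batch numbers because each batch pooled 1 mouse of every strain, so batch is a term of every fit of 1 cluster; interactions between 2 clusters of the same mice used the mouse as a block. Paired contrasts were planned for Drd1+ neurons, and those of Drd2+ neurons and astrocytes were read from the same kind of fit and were not repeated under the alternatives. Alternatives were relative log expression scaling, no filter, DESeq2 1.42.0, no batch term, at least 20 nuclei, the 4 other classical strains as reference, all nuclei of a mouse summed, and leaving out each batch. On simulated counts of 13431 genes, the C57BL/6 contrast in Drd1+ neurons recovered 68.0% of genes changed by 0.6 and 89.7% of those changed by 1 on the log2 scale, and in astrocytes (8207 genes) 27.2% and 64.9%. Of the simulated calls, 7.65% were false in Drd1+ neurons, 5.85% in Drd2+ neurons and 2.15% in astrocytes. Recovery was taken over genes of all levels, and that at the low counts of Nnt was not read separately. Total counts per mouse ran from 1710451 to 9416806 in Drd1+ neurons and from 38252 to 1085998 in astrocytes.

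The text names the 5 genes, and the genes of related lists that were called or that stand beside them, except 1 gene called higher in Drd1+ neurons whose result is not reported here; Gabra4, Gabrb1, Mme, Gsr, Entpd1 in Drd1+ neurons, Cyfip2 and the genes around Entpd4 were added after their values were seen. For each member it also names the 3 genes most alike by Pearson's r. The members and lists were chosen with earlier results of these data known. Promoter sequences and gene positions came from RefSeq tables of GRCm38.p6 (read with Python 3.11.15). Accessibility per nucleus was not used here.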

Additional observations from a re-analysis of the deposited data

Results flagged for a closer look

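In 7 of 176 groups of 4 mice of a strain, 1 mouse stood apart from the other 3; chance gives about 1 in 20. Gabra2 in endothelium was 569.5 CPM in the C57BL/6 mouse of batch 3, against 60.03 to 138 in the other 3, from 32 counts in 22 nuclei. Gabra2 in the Polydendrocyte/Oligodendrocyte cluster was 0 in the A/J mouse of batch 3, in 16 nuclei, against 234 to 260.0 CPM. Ide was 75.7 CPM in astrocytes of the NOD/ShiLtJ mouse of batch 1 (others 48.5 to 52.2) and 117 CPM in Nxph1+ interneurons of the WSB/EiJ mouse of batch 1 (others 53.9 to 63.4). Nnt in Drd2+ neurons was 9.50 CPM, from 16 counts, in the NOD/ShiLtJ mouse of batch 3, against 4.04 to 4.53. Wdfy1 was 52.0 CPM in Drd1+ neurons of the PWK/PhJ mouse of batch 1 (others 40.9 to 42.1) and 23.3 CPM, from 4 counts, in the second Drd1+ cluster of the NOD/ShiLtJ mouse of batch 2 (others 57.6 to 64.3).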

How the results depend on the processing

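No result changed direction while called. The C57BL/6 difference of Gabra2 stayed called in Drd1+ neurons (log2 0.35 to 0.43 in 11 alternatives). Of these, 1 summed all nuclei of a mouse, not Drd1+ neurons alone, and leaving out 1 batch gave 0.37 to 0.43. The Gabra2 difference also stayed called in Drd2+ neurons (0.37 to 0.42 in 10) and the second Drd1+ cluster (0.40 to 0.60 in 10). That of Ide stayed called in Drd1+ (0.37 to 0.62) and Drd2+ neurons (0.42 to 0.62). Without the replicate block (no batch term), Ide was no longer called against 129S1/SvImJ (0.51) or NZO/HlLtJ (0.46) in Drd1+ neurons, nor in astrocytes (0.65); DESeq2 gave 0.45 for Ide against NZO/HlLtJ, and the 4 classical strains as reference gave 0.62 for Ide in astrocytes, neither called. Without the filter, Ide against NOD/ShiLtJ (0.41) and Gabra2 in macrophages (1.22; strain term adjusted p = 0.0393, edgeR) were called. With batch in place of the mouse, the Gabra2 astrocyte interaction was called at -0.57. Leaving out 1 batch at a time, Ide in astrocytes ranged from 0.42 to 0.85 and Wdfy1 in Drd2+ neurons from 0.22 to 0.31. In Drd1+ neurons the contrast with NZO/HlLtJ ranged from 0.23 to 0.30 for Gabra2 and from 0.27 to 0.53 for Ide, that of Ide with 129S1/SvImJ from 0.27 to 0.64, and those with WSB/EiJ from 0.33 to 0.48 for Wdfy1 and from -1.30 to -0.92 for Nnt. The Nnt strain term had edgeR adjusted p-values from 0.0136 to 0.0878 in Drd1+ and from 0.0279 to 0.0842 in Drd2+ neurons. Among uncalled differences, Gabra2 ranged in oligodendrocytes from -0.26 to 0.31, Ide in oligodendrocytes from 0.08 to 0.43, in the second Drd1+ cluster from 0.17 to 0.49 and in Nxph1+ interneurons from 0.24 to 0.34, and Wdfy1 in macrophages from 0.01 to 0.19. The genes called in Drd1+ neurons numbered 1238 to 1445 in place of 1873, with fewer mice in each fit. Otherwise the cause of these changes was not tested. Low counts limit Nnt everywhere and all members in small clusters; Entpd4 could not be measured.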
